A study of Mus musculus with 30 samples.

Results

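T cells from MOC1 tumours of mice given an anti-CTLA-4 antibody were compared with T cells from MOC1 tumours of mice given an isotype control antibody. MOC1 is a transplantable mouse oral squamous carcinoma line. A cell was taken as a member when it carried 300 or more detected genes, a mitochondrial share of UMIs of 10% or less, a single positive hashtag and at least 1 UMI of Cd3e, Cd3d or Cd3g, the chains of the CD3 complex. These criteria left 7742 of the 8819 barcodes of both libraries: 3450 T cells with anti-CTLA-4 and 4292 with isotype. The series as a whole holds 30 samples, and it sets tumour T cells of responding conditions beside those of resistant ones.

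All mice were C57BL/6J and all material came from tumours. The anti-CTLA-4 or the isotype antibody was injected into the peritoneum on days 3, 6 and 9 after tumour inoculation, and the same schedule was used for the anti-PD-1 mice that serve here as a second point of comparison. Antibody clones, doses, the day of harvest and the age and number of mice are not given in the sources used here. Each treatment is 1 RNA library with 1 matching T cell receptor library, so treatment and library cannot be told apart. Inside each library, 4 hashtags (antibody-borne barcodes) divide the cells, and what a hashtag stands for is not stated. The 4 hashtag sums per treatment were used as replicates, and every p-value below measures only the spread between hashtags within libraries.

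CTLA-4 is an inhibitory receptor that competes with the costimulatory receptor CD28 for the ligands CD80 and CD86. Regulatory T cells, which depend on the transcription factor Foxp3, carry it constitutively and use it to restrain other T cells, whereas CD8 and conventional CD4 T cells display it after activation. Blocking antibodies against CTLA-4 are used in cancer therapy, and in mouse tumours some of them also deplete regulatory T cells through Fc receptors on myeloid cells.

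Per anti-CTLA-4 hashtag, 770 to 1080 T cells with 4869426 to 7284045 UMIs in sum were available, and per isotype hashtag 599 to 1465 T cells with 4209374 to 8425743 UMIs. Median UMIs per T cell were 4841 to 5451 across anti-CTLA-4 hashtags and 4337 to 5064 across isotype hashtags, and median mitochondrial shares were 1.93 to 2.02% with anti-CTLA-4 and 2.49 to 2.68% with isotype. CD3 transcripts were found in 98.3% of singly tagged anti-CTLA-4 cells and in 97.4% of isotype cells. The summed level of 9 T cell marker genes was 6328 to 6658 CPM (UMI counts scaled to a common total per sum) with anti-CTLA-4 and 5389 to 5509 CPM with isotype. Of the marker lists of other cells, several were lower with anti-CTLA-4: B and plasma cell genes summed to 39.1 to 63.6 against 177 to 229.6 CPM, macrophage and monocyte genes to 94.9 to 121 against 294 to 362 CPM, and carcinoma genes to 8.65 to 10.6 against 34.0 to 169 CPM. Natural killer cell genes (47.95 to 59.9 against 50.4 to 97.7 CPM) and fibroblast and endothelium genes (19.9 to 28.6 against 27.5 to 34.2 CPM) overlapped. The B cell marker Ms4a1 was at 0 in both libraries. The libraries shared 33 cell barcodes.

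Anti-CTLA-4 hashtags 1 and 2 shared most of their T cell clones. A clone was defined as cells with exactly 1 productive alpha and 1 productive beta chain that share V genes and CDR3 nucleotides in both chains. Of 117 clones of 2 or more cells in anti-CTLA-4 hashtags 1 and 2, 80 (68.4%) had cells in both, and 10 of the 11 clones with at least 10 cells in that pair had over 20% of them in each hashtag. Hashtags 3 and 4 shared 19 of 126 clones (15.1%), and the other anti-CTLA-4 pairs 1.26 to 3.37%. Pairs of isotype hashtags shared 0 to 1.77% and pairs of anti-PD-1 hashtags 0 to 3.66%. The summed counts of anti-CTLA-4 hashtags 1 and 2 differed by a chi-square of 1.51 per gene, against 4.09 to 6.78 in the other anti-CTLA-4 pairs and 1.78 to 5.65 among isotype pairs. Whether hashtags 1 and 2 hold cells of the same tumour was not tested. Leading results are also given with both summed into 1 anti-CTLA-4 replicate, a choice made after the clones were seen.

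The CDR3 sequences of 4 leading clones are printed because they carry the hashtag pattern and the class of the expanded cells. They are in lower case, 5′ to 3′, as the deposited receptor tables give them.
anti-CTLA-4 clone 3, alpha chain TRAV8N-2: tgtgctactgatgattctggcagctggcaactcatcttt
anti-CTLA-4 clone 3, beta chain TRBV4: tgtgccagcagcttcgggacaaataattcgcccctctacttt
anti-CTLA-4 clone 4, alpha chain TRAV3-3: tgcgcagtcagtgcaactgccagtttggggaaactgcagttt
anti-CTLA-4 clone 4, beta chain TRBV19: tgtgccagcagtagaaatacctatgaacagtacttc
isotype clone 1, alpha chain TRAV10: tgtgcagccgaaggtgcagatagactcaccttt
isotype clone 1, beta chain TRBV5: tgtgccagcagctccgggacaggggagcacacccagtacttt
isotype clone 2, alpha chain TRAV6-7-DV9: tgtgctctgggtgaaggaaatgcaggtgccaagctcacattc
isotype clone 2, beta chain TRBV14: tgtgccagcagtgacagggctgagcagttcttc

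Clone 4 of the anti-CTLA-4 library counted 39 cells, all in the CD8 class defined below, and was split into 16 cells in hashtag 1 and 23 in hashtag 2. Clone 3 was a CD4 clone of 41 cells, 29 of them in the conventional CD4 class and 10 without a class transcript, with 20 cells in each of hashtags 1 and 2. In the isotype library, clone 1 counted 22 cells, all in hashtag 4, and 20 of them were in the regulatory class. Isotype clone 2 counted 18 cells, all in the CD8 class, with 17 of them in hashtag 2. None of these 4 receptors was found in the other treatment's library.

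CD8 T cells made up most of the T cells after anti-CTLA-4 and a minority of the T cells after isotype, and cells of the regulatory class were few after anti-CTLA-4. Classes were read from each cell's own transcripts: CD8 cells have Cd8a or Cd8b1 and neither Cd4 nor Foxp3, regulatory cells have Foxp3 and no CD8 transcript, conventional CD4 cells have Cd4 without the others, gamma-delta cells are the cells of the remainder with Trdc, and the rest is mixed or has none of these transcripts. The CD8 share was 56.5, 61.6, 66.1 and 51.9% in anti-CTLA-4 hashtags 1 to 4, against 17.4, 18.5, 17.5 and 20% in isotype hashtags 1 to 4. Every anti-CTLA-4 hashtag lay far above every isotype hashtag, with a mean of 59.0 ± 6.15% against 18.3 ± 1.22% (SD, n = 4 each). The regulatory share was 1.51, 1.43, 0.741 and 1.62% with anti-CTLA-4, against 30.4, 27.1, 30.4 and 22.5% with isotype, that is 44 cells against 1142 cells. Again the groups did not overlap. There were 37.5, 43.1, 89.2 and 32.1 CD8 cells per regulatory cell in the anti-CTLA-4 hashtags, against 0.571, 0.683, 0.577 and 0.888 in the isotype hashtags. The shares and this ratio depend on the class rule, which leaves out Foxp3 cells with a CD8 transcript: 128 of 3450 anti-CTLA-4 cells and 1542 of 4292 isotype cells had Foxp3, and 84 (65.6%) and 400 (25.9%) of these had a CD8 transcript. Among cells with Cd4 and no Foxp3, a CD8 transcript was found in 181 of 861 (21.02%) with anti-CTLA-4 and in 75 of 778 (9.64%) with isotype.

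The CD8 difference of 40.7 percentage points and the regulatory difference of -26.3 points each gave p = 0.0286 in a two-sided exact permutation test, the smallest value that 4 against 4 allows, and 0.0429 after adjustment over 6 classes. With hashtags 1 and 2 summed, the differences were 40.7 and -26.3 points and the exact p was 0.0571, the smallest that 3 against 4 allows. Conventional CD4 cells formed 22.3, 18.1, 16.7 and 22.8% with anti-CTLA-4 and 15.9, 17.8, 14.9 and 16.04% with isotype, which overlapped (difference 3.80 points, exact permutation p = 0.0571). The conventional CD4 class can hold regulatory cells whose Foxp3 transcript was not captured. Their part in its shares, here and in the thinned cells below, was not tested. Gamma-delta cells were 21 of 3450 cells with anti-CTLA-4 and 87 of 4292 with isotype, 1.35 points fewer (exact permutation p = 0.0286, adjusted 0.0429). With cells thinned as below they formed 0.268, 0.416, 0.0978 and 1.32% with anti-CTLA-4 and 1.66, 1.46, 1.36 and 1.27% with isotype, which overlapped (exact permutation p = 0.0571, adjusted 0.0857). Cells with no class transcript were 11.04, 10.9, 11.02 and 11.7% with anti-CTLA-4 and 20.5, 24.5, 24.5 and 28.4% with isotype, and mixed cells 5.19 to 10.6% and 10.1 to 14.0%.

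Transcripts drop out and spill over, so the same shares were also read with cells thinned to 2000 UMIs. T cells with fewer UMIs, 194 with anti-CTLA-4 and 497 with isotype, were left out, as were cells without a CD3 transcript after thinning. This left 3248 T cells with anti-CTLA-4 and 3772 with isotype. The CD8 share was then 60.4, 64.4, 68.8 and 56.1% with anti-CTLA-4 and 20.1, 20.03, 19.0 and 20.6% with isotype. The regulatory share was 1.34, 1.52, 0.294 and 1.59% against 24.2, 21.2, 24.4 and 19.3%, while conventional CD4 cells differed by 0.37 points (exact permutation p = 0.771). The adjusted exact p of the CD8 and the regulatory share was 0.0571 in the thinned cells. Foxp3 was also counted in cells that should lack it: 41 of 2096 anti-CTLA-4 cells with a CD8 transcript and no Cd4 (1.96%, median 5785 UMIs) and 157 of 958 such isotype cells (16.4%, median 5363 UMIs). Among cells with Cd4 and no CD8 transcript, Foxp3 was found in 28 of 708 (3.95%) with anti-CTLA-4 and in 701 of 1404 (49.9%) with isotype. Mixed cells had medians of 9755 and 9420 UMIs in the anti-CTLA-4 and isotype libraries, against 5741 and 5145 UMIs in the CD8 class.

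**Figure D1:**
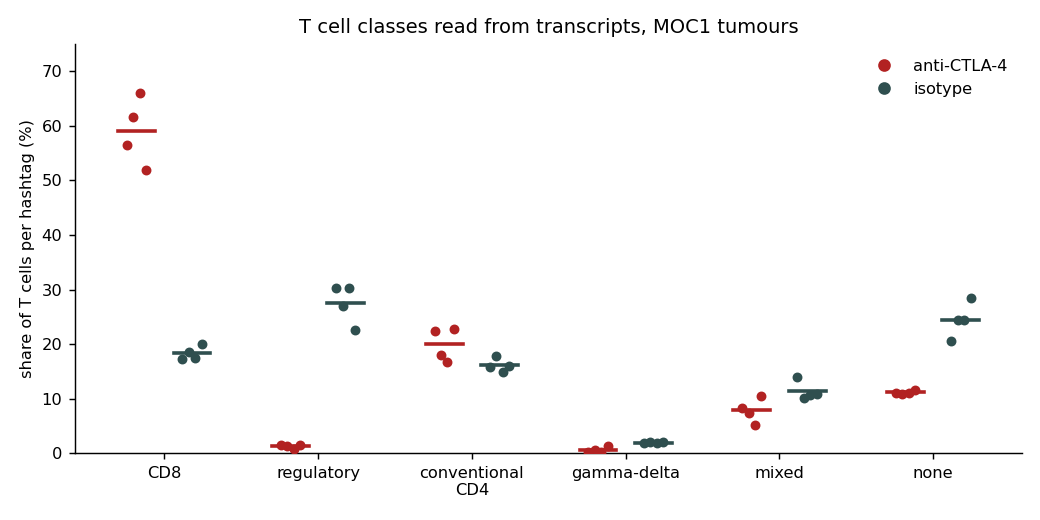
Share of T cells in each transcript class, in percent of the T cells of a hashtag, for 4 anti-CTLA-4 and 4 isotype hashtags (points) with their means (lines). The CD8 points lie between 51.9 and 66.1% with anti-CTLA-4 and between 17.4 and 20% with isotype, and the regulatory points show the opposite order.

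Across all T cells together, anti-CTLA-4 went with higher transcripts of the interferon gamma and interleukin 12 axis, and with lower transcripts of regulatory, memory and interferon-response genes. Of 10171 genes tested with edgeR's quasi-likelihood test, 1980 were higher (19.5%) and 1975 lower (19.4%) at a Benjamini-Hochberg adjusted p of 0.05 or less, 38.9% in all. At least a doubling was seen for 251 genes (2.47%) and at least a halving for 614 (6.04%). With hashtags 1 and 2 summed, 1808 genes were higher and 1848 lower. Scaling by library totals in place of TMM put the median gene at -0.12, against -0.01 with TMM, and gave 1172 higher and 2862 lower genes, so that 29.1% and not 50.1% of the calls were higher. In such sums, fewer cells of a class and less RNA per cell cannot be told apart, and the class shares above differ between the libraries.

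Among the type 1 helper and interleukin 12 genes, 12 of 15 tested members were higher and 2 lower (16 in the list), with a median log2 fold change of 0.77, beside 19.5% and 19.4% of all genes and a median of -0.01. Il12rb2, the signalling chain of the interleukin 12 receptor, had 95.8, 101, 92.4 and 94.1 CPM in the anti-CTLA-4 hashtags, against 9.03, 13.8, 13.6 and 16.7 CPM in the isotype hashtags. All anti-CTLA-4 sums stood at least 5 times above all isotype sums, and this was the largest rise among well expressed genes (mean of at least 20 CPM) without overlap (log2 fold change 2.92, SE 0.12, adjusted p = 9.13e-09). Ifng, the cytokine interferon gamma, had 224, 229.7, 169.96 and 255 CPM in the anti-CTLA-4 hashtags, against 46.3, 57.8, 68.99 and 64.4 CPM in the isotype hashtags. These groups were also apart (log2 fold change 1.99, SE 0.14, adjusted p = 5.01e-07). Tbx21, the transcription factor T-bet that drives Ifng, had 123, 143, 113 and 139 CPM with anti-CTLA-4 and 45.6, 52.7, 44.5 and 56.3 CPM with isotype, a log2 difference of 1.48 ± 0.10 (SE). Il18rap, a chain of the interleukin 18 receptor, differed by 1.55 ± 0.07, and Csf2, the cytokine GM-CSF, by 2.24 ± 0.49. The members that were lower were Il12rb1 (-0.74), the other chain of the interleukin 12 receptor, and Irf1 (-0.73), a factor induced by interferons. Il2 was not called (-0.93).

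Of 22 tested effector and cytotoxic genes, 14 were higher and none was lower (24 in the list, median 0.89). Klrc1 and Klrk1, which encode the natural killer receptors NKG2A and NKG2D, rose: Klrc1 had 216, 226, 317 and 252 CPM in the anti-CTLA-4 hashtags, against 60.6, 72.2, 64.4 and 74.5 CPM in the isotype hashtags. The sums did not overlap (log2 fold change 2.001, SE 0.12, adjusted p = 1.25e-07), and Klrk1 differed by 1.66 ± 0.11. Prf1, the pore-forming protein perforin, had 33.1, 32.9, 41.05 and 27.9 CPM in the anti-CTLA-4 hashtags, against 13.1, 15.2, 13.8 and 22.7 CPM in the isotype hashtags, a log2 difference of 1.14 ± 0.17. Gzmb, the protease granzyme B, had 584, 533, 609 and 335 CPM in the anti-CTLA-4 hashtags, against 731, 587, 565 and 557 CPM in the isotype hashtags. Its groups overlapped and it was not called (log2 fold change -0.12, SE 0.15, adjusted p = 0.538), and neither was Gzma (-0.63 ± 0.45). Cd226, a costimulatory receptor that shares ligands with the inhibitory receptor TIGIT, had 140.4, 152, 117 and 129 CPM in the anti-CTLA-4 hashtags, against 38.96, 36.8, 31.5 and 41.7 CPM in the isotype hashtags. That is a log2 difference of 1.96 ± 0.10 without overlap, while Tigit itself was not called (0.07 ± 0.06). Stk32c, which encodes a kinase, rose by 2.01 ± 0.14, with hashtag 1 above the other anti-CTLA-4 sums. Cxcr6, the receptor for CXCL16, had 404, 477, 555 and 475 CPM in the anti-CTLA-4 hashtags, against 179, 164, 148 and 189.7 CPM in the isotype hashtags (log2 difference 1.60 ± 0.10).

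**Figure D2:**
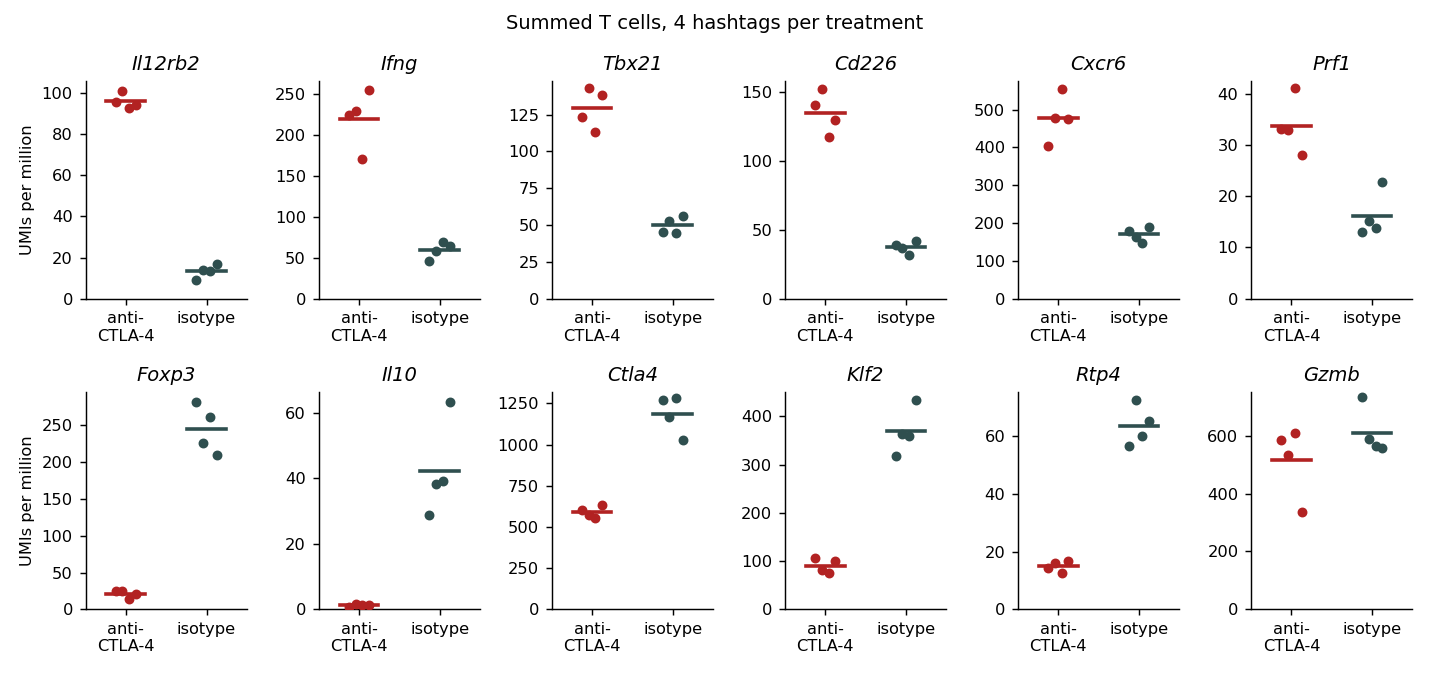
CPM in the summed T cells of each hashtag for 12 genes, with anti-CTLA-4 left and isotype right; lines are means and every axis starts at 0. Il12rb2, Ifng, Tbx21, Cd226, Cxcr6 and Prf1 are higher with anti-CTLA-4, Foxp3, Il10, Ctla4, Klf2 and Rtp4 are lower, and the Gzmb groups overlap.

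The regulatory T cell programme was lower as a group: 21 of 23 tested members fell and none rose (24 in the list, median -2.03). Foxp3 had 24.5, 24.4, 13.9 and 21.6 CPM in the anti-CTLA-4 hashtags, against 282, 226, 261 and 209 CPM in the isotype hashtags. The highest anti-CTLA-4 sum was under an eighth of the lowest isotype sum (log2 fold change -3.43, SE 0.15, adjusted p = 1.21e-08). Il10, the suppressive cytokine interleukin 10, had 0.689, 1.55, 1.37 and 1.44 CPM in the anti-CTLA-4 hashtags, against 28.7, 38.3, 39.1 and 63.3 CPM in the isotype hashtags, the largest fall among the genes named by size (-4.97). Ikzf2, the factor Helios, fell by 2.24 on the log2 scale, Il2ra, the interleukin 2 receptor alpha chain, by 2.56, and Lrrc32, the GARP protein that holds latent TGF-beta at the surface of regulatory cells, by 3.08. Izumo1r, the folate receptor 4 of regulatory cells, had 35.7, 30.2, 21.97 and 30.2 CPM with anti-CTLA-4 and 207, 229.9, 226 and 216 CPM with isotype (-2.79 ± 0.11). Ctla4, the target of the antibody, had 602, 571, 553 and 636 CPM in the anti-CTLA-4 hashtags, against 1271, 1166, 1285 and 1031 CPM in the isotype hashtags. The antibody does not edit the gene, so its transcript is no check of the label; it stood at about a log2 unit lower in every anti-CTLA-4 sum (log2 fold change -0.89, SE 0.07, adjusted p = 1.25e-06). Tnfrsf4, the costimulatory receptor OX40, fell by 1.86 on the log2 scale. The members that were not called were Nrp1 and Ebi3.

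Other genes of the largest falls were Penk, the enkephalin precursor, with 17.1, 9.86, 33.1 and 36.6 CPM with anti-CTLA-4 and 249.7, 351, 326 and 280.2 CPM with isotype, and Ncmap (-4.56), Neb (-4.17), Bmyc (-3.48) and Rln3 (-3.03). Ncmap had 1.21, 2.13, 1.78 and 3.08 CPM with anti-CTLA-4 and 64.1, 49.02, 52.5 and 42.6 CPM with isotype. None of these sums overlapped. Genes of gamma-delta and type 17 cells fell in 10 of 14 tested members (median -2.09), among them Ccr6, a chemokine receptor of type 17 cells (-3.30). All 7 tested MHC class II genes fell (median -2.20): Cd74, the invariant chain, had 208, 137, 261 and 138 CPM in the anti-CTLA-4 hashtags, against 695, 719, 520.002 and 817 CPM in the isotype hashtags. The summed levels of macrophage, B cell and dendritic cell markers were lower in the same sums, by the ranges given above. The part of these cells in the class II difference was not tested.

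Both interferon lists were lower without exception among called members. Of 42 tested type I interferon response genes 35 fell and none rose (43 in the list, median -0.95), and all 17 tested GTPase genes induced by interferon gamma fell (18 in the list, median -1.11), although Ifng itself rose. Rtp4, a type I interferon-induced gene, had 14.3, 16.05, 12.6 and 16.8 CPM in the anti-CTLA-4 hashtags, against 56.5, 72.4, 59.96 and 65.2 CPM in the isotype hashtags. The isotype sums were all more than 3 times the anti-CTLA-4 sums (log2 fold change -1.996, SE 0.11, adjusted p = 9.95e-08). Gbp2, a guanylate-binding protein, had 37.4, 41.4, 45.2 and 42.5 CPM with anti-CTLA-4 and 84.3, 94.8, 92.2 and 87.4 CPM with isotype (-0.99 ± 0.07), and Iigp1, another interferon-induced GTPase, differed by -4.04 ± 0.29. Some of these genes have near-identical copies, such as Ifit3 with Ifit3b and Tgtp1 with Tgtp2, between which reads may be split. Macrophage and monocyte markers were lower in the same sums, at 94.9 to 121 CPM with anti-CTLA-4 and 294 to 362 CPM with isotype. The summed level of dendritic cell markers was also lower, by the range given above. The part of these cells in the interferon difference was not tested.

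The promoters of both interferon lists were searched for the core of the interferon-stimulated response element. This core is GAAA followed by any 2 bases and a second GAAA. Either strand was searched in the 250 bases before the start (RefSeq, GRCm38.p6). Matches of the motif can overlap by 1 repeat, and a gene counted once however many it held. It was present for 19 of the 35 type I interferon genes with a promoter entry (54.3%) and for 10 of 11 GTPase genes (90.9%), against 936 of 27025 genes in all (3.46%). Among the members that fell, 14 of 28 and 9 of 10 held it. The lists were chosen as interferon-induced genes, so a high share of this motif was given by that choice. Whether the motif goes with the fall was not tested. Windows of 30 bases from 6 of these genes are shown, with the match in capitals, read along the gene's own strand, so that TTTC stands first where the match is on the other strand.
Oas1a, chr5:120907526-120907555, minus strand: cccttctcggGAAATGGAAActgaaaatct
Stat2, chr10:128270266-128270295, plus strand: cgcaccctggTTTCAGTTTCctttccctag
Bst2, chr8:71537577-71537606, minus strand: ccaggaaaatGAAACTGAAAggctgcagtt
Gbp2, chr3:142620594-142620623, plus strand: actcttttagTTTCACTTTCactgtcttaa
Gbp5, chr3:142496759-142496788, plus strand: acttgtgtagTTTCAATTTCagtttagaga
Igtp, chr11:58199512-58199541, plus strand: tctaggaactGAAACTGAAAgctgttcggg

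These windows describe the letters only and do not show that a factor binds there. Of the genes shown, Oas1a, an antiviral sensor, had 4.48, 7.35, 4.39 and 6.78 CPM with anti-CTLA-4 and 33.97, 39.2, 34.3 and 24.7 CPM with isotype (-2.43 ± 0.19). Bst2, the antiviral protein tetherin, had 98.2, 109, 85.8 and 85.4 CPM with anti-CTLA-4 and 196, 226, 219.8 and 214 CPM with isotype (-1.07 ± 0.08), and Stat2, a transcription factor of type I interferon signalling, differed by -1.08 ± 0.11. Gbp5 and the GTPase gene Igtp differed by -1.86 ± 0.18 and -1.24 ± 0.10. No sum of Oas1a, Bst2 or Stat2 with anti-CTLA-4 reached a sum with isotype.

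Genes of memory and progenitor T cells fell in 16 of 19 members and rose in 1 (median -1.30). Klf2, a factor of resting circulating T cells, had 106, 82.2, 75.4 and 100.01 CPM in the anti-CTLA-4 hashtags, against 318, 365, 359 and 433 CPM in the isotype hashtags, and its groups lay far apart (log2 fold change -1.91, SE 0.12, adjusted p = 2.41e-07). S1pr1, the receptor that lets T cells leave tissue, fell by 1.60 on the log2 scale, the interleukin 6 receptor gene Il6ra by 3.01, and the survival gene Bcl2 by 1.93. Tcf7, the factor TCF-1 of progenitor T cells, was not called (-0.06 ± 0.10). Of 38 cell cycle genes 18 were higher and none lower (median 0.54), but 10 with hashtags 1 and 2 summed, and Mki67 was not called (0.32 ± 0.27). Hmgb2, a chromatin protein of dividing cells, differed by 1.16 ± 0.12. Inhibitory receptors and exhaustion genes went both ways, as all genes did: 5 of 21 were higher and 7 lower, beside 19.5% and 19.4% of all genes. Pdcd1, the gene of PD-1, differed by 0.70 ± 0.15 and Tox, a factor of exhausted cells, by -1.25 ± 0.11. Lag3 was not called (-0.58 ± 0.27), although it was lower and called without anti-CTLA-4 hashtag 3 (-1.02). All 11 called genes of the 13 mitochondrially encoded ones were lower (median -0.30), beside the lower mitochondrial share of the anti-CTLA-4 cells. Of 81 ribosomal protein genes 30 were higher and 12 lower, but with library totals 12 were higher and 24 lower.

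**Figure D3:**
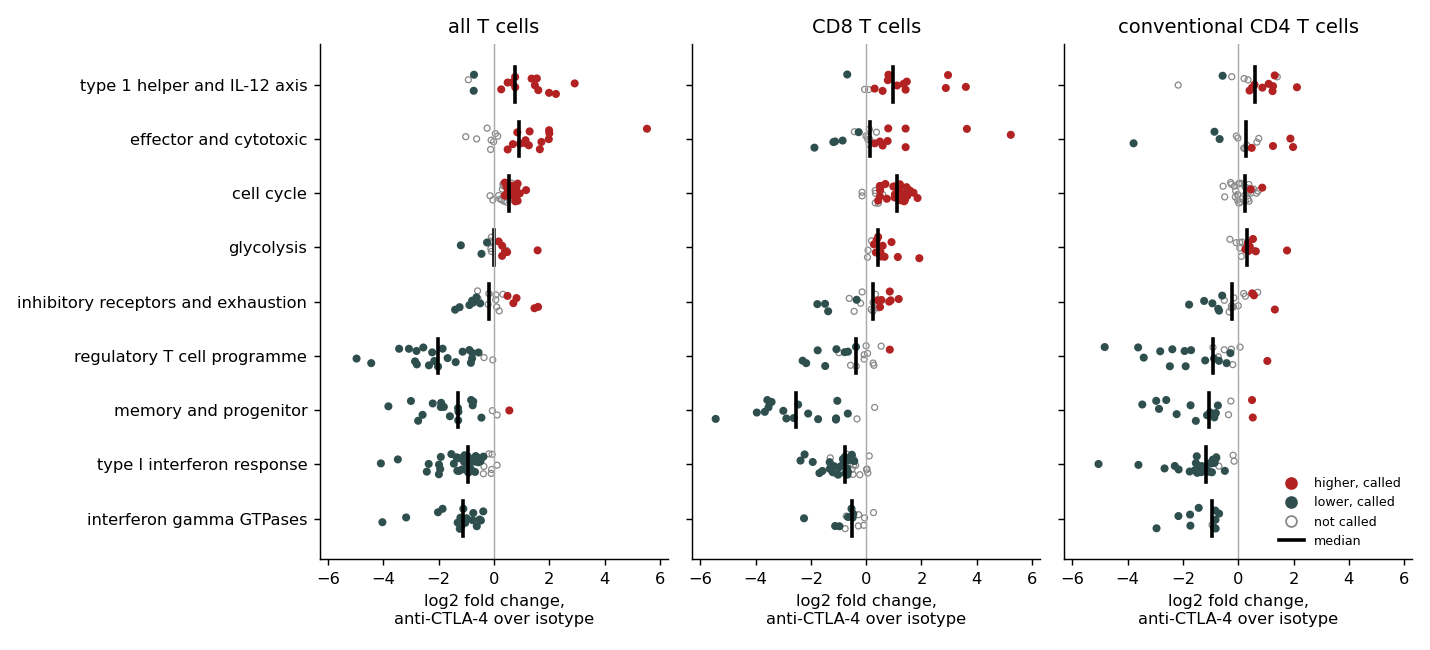
Log2 fold changes, anti-CTLA-4 over isotype, of the tested members of 9 gene lists in all T cells, CD8 T cells and conventional CD4 T cells; filled points were called, open points were not, and the line is the list's median. Gzmf in CD8 T cells is drawn at its lower bound. The type 1 and interleukin 12 members lie mainly right of 0, and the memory and interferon members left of 0, in all 3 panels.

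Within CD8 T cells, anti-CTLA-4 went with more transcripts of type 1, cell cycle and glycolysis genes and fewer of memory, interferon-response and ribosomal protein genes. The 8 sums held 417 to 714 cells with anti-CTLA-4 and 104 to 293 with isotype. Of 8547 genes tested, 1117 were higher (13.1%) and 1091 lower (12.8%), 25.8% in all, and 971 and 908 with hashtags 1 and 2 summed. With library totals, 62.0% and not 50.6% of the calls were higher. Of the genes higher in all T cells and tested here, 846 of 1890 were also higher in CD8 cells (44.8%, or 75.7% of the CD8 calls), and of those lower 670 of 1485 (45.1%, or 61.4%). In CD8 cells, 39 of the genes higher in all T cells were called lower and 33 of those lower were called higher. The CD8 cells are part of the sums over all T cells, so some of this overlap was given in advance. Cd8a, Cd8b1, Cd4 and Foxp3 chose these cells and are not read as results. Gamma-delta and type 17 genes summed to 21.1 to 53.0 CPM in these sums with anti-CTLA-4 and 65.7 to 216 CPM with isotype, and their part was not tested.

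Il12rb2 had 112, 107, 96.6 and 107 CPM in the anti-CTLA-4 hashtags, against 16.5, 10.4, 12.6 and 13.9 CPM in the isotype hashtags (log2 fold change 2.96, SE 0.13, adjusted p = 3.76e-09). Csf1, the macrophage growth factor M-CSF, had 51.1, 57.6, 78.3 and 60.2 CPM in the anti-CTLA-4 hashtags, against 1.65, 7.80, 5.23 and 3.02 CPM in the isotype hashtags. It was nearly missing from isotype CD8 cells and present in every anti-CTLA-4 sum (log2 fold change 3.61, SE 0.26, adjusted p = 2.59e-07). Adam8, a surface metalloprotease, had 91.7, 81.4, 79.9 and 78.97 CPM in the anti-CTLA-4 hashtags, against 8.25, 11.7, 11.5 and 9.66 CPM in the isotype hashtags (2.91 ± 0.14), and Anxa1, annexin A1, and Mt3, a metallothionein, rose by 2.997 ± 0.26 and 2.69 ± 0.21. The largest rise by the same rule was the granzyme gene Gzmc, with 42.3, 25.1, 112 and 71.4 CPM in the anti-CTLA-4 hashtags, against 3.30, 4.55, 4.19 and 6.04 CPM in the isotype hashtags. All of its anti-CTLA-4 sums lay above all isotype sums (log2 fold change 3.64, SE 0.58, adjusted p = 0.000305). Gzmf had 350 UMIs over the anti-CTLA-4 sums and 0 over the isotype sums, at least 37.6-fold higher against 3 counts over the group.

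Of 14 tested type 1 and interleukin 12 genes, 11 were higher in CD8 cells and 1 lower (median 0.96, beside -0.03 for all genes). Ifng had 249.7, 242, 185 and 300.01 CPM in the anti-CTLA-4 hashtags, against 79.2, 109.9, 72.2 and 79.1 CPM in the isotype hashtags, again without overlap (1.43 ± 0.16), and Tbx21 differed by 1.12 ± 0.13. Stat4, which carries the interleukin 12 signal, was not called (0.09 ± 0.10). Of 22 effector and cytotoxic genes 9 were higher and 5 lower (median 0.12), while the number lower was 2 with library totals, 1 by DESeq2 and 3 of 21 with hashtags 1 and 2 summed, each with 9 higher. Gzmb had 810.02, 695, 718 and 477 CPM in the anti-CTLA-4 hashtags, against 302, 295, 137 and 231 CPM in the isotype hashtags and was higher in every anti-CTLA-4 sum (log2 fold change 1.43, SE 0.18, adjusted p = 4.63e-05), whereas the sums over all T cells overlapped. Prf1 had 49.1, 45.6, 54.9 and 41.1 CPM in the anti-CTLA-4 hashtags, against 24.7, 45.5, 20.9 and 62.8 CPM in the isotype hashtags and overlapped (0.11 ± 0.22, not called). Gzma (-0.85), Gzmm (-1.19) and Xcl1 (-1.87), a chemokine gene for cross-presenting dendritic cells, were lower. Ccl3 (-1.13) and Lamp1 (-0.27) were the other members that fell. With hashtags 1 and 2 summed Lamp1 was no longer called and Gzmm was not tested. Gzma was no longer called without isotype hashtag 1 (-0.91) or 2 (-0.35), or without anti-CTLA-4 hashtag 2 (-0.77), 3 (-0.81) or 4 (-0.71).

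Cell cycle genes were higher in 30 of 38 members and lower in none in CD8 cells (median 1.13), and 25 were higher with hashtags 1 and 2 summed. With cells thinned to 2000 UMIs, 12 of 26 were higher and 1 lower (median 0.71). Mki67, which marks cycling cells, had 105, 96.4, 84.3 and 50.1 CPM in the anti-CTLA-4 hashtags, against 41.2, 38.4, 29.3 and 20.5 CPM in the isotype hashtags, with anti-CTLA-4 hashtag 4 closest to the isotype sums (log2 fold change 1.37, SE 0.23, adjusted p = 0.000524). Glycolysis genes were higher in 12 of 15 and lower in none (median 0.44), led by the glucose transporter gene Slc2a3, with 54.002, 59.97, 57.3 and 55.5 CPM with anti-CTLA-4 and 8.25, 20.2, 13.6 and 11.5 CPM with isotype (1.92 ± 0.17). Among inhibitory receptors, Ctla4 had 426, 425, 463 and 499.8 CPM in the anti-CTLA-4 hashtags, against 233, 227, 217 and 277 CPM in the isotype hashtags. It was thus higher in CD8 cells of all anti-CTLA-4 hashtags (log2 fold change 0.85, SE 0.09, adjusted p = 7.24e-06), while over all T cells it was lower. Tigit (0.55 ± 0.09), Havcr2, the gene of TIM-3 (0.83 ± 0.23), and Pdcd1 (0.43 ± 0.14) also rose, Lag3 was not called (-0.20 ± 0.24), and Tox fell to 19.7, 16.7, 15.4 and 20.9 CPM with anti-CTLA-4, against 57.7, 54.6, 50.2 and 68.3 CPM with isotype (-1.77 ± 0.14). Pdcd1 was no longer called without anti-CTLA-4 hashtag 3 (0.27) or isotype hashtag 1 (0.39), 3 (0.45) or 4 (0.36), and Lag3 was called without anti-CTLA-4 hashtag 3 (-0.59).

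The memory and progenitor list had a median of -2.54 in CD8 cells, with 16 of 18 tested members lower and none higher. Bcl2 had 14.6, 14.02, 20.5 and 18.03 CPM in the anti-CTLA-4 hashtags, against 139, 164, 185 and 198 CPM in the isotype hashtags. The lowest isotype sum was more than 6 times the highest anti-CTLA-4 sum (log2 fold change -3.42, SE 0.14, adjusted p = 1.8e-09). Klf3, a factor of resting lymphocytes, had 8.86, 6.56, 4.87 and 9.01 CPM with anti-CTLA-4 and 101, 94.96, 109.9 and 114 CPM with isotype (-3.96 ± 0.16), and Id3 also fell (-3.67 ± 0.18). Tcf7 had 57.7, 67.1, 52.8 and 67.1 CPM in the anti-CTLA-4 hashtags, against 130.3, 122, 129 and 118 CPM in the isotype hashtags, and was called here (log2 fold change -1.09, SE 0.10, adjusted p = 2.19e-06). Car2, carbonic anhydrase 2, was the largest fall by size, with 1.43, 0.298, 4.67 and 3.97 CPM with anti-CTLA-4 and 74.2, 75.4, 79.5 and 57.4 CPM with isotype (-4.73 ± 0.31). Hspa1a, a stress-induced chaperone, fell by 3.00 on the log2 scale. Zfp36, an immediate early gene, fell by 1.27, and the list of immediate early and heat shock genes had 2 of 20 higher and 10 lower.

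The interferon lists also fell inside the CD8 class: 22 of 39 tested type I genes and 7 of 14 GTPase genes were lower and none was higher (medians -0.76 and -0.51). Rtp4 had 16.9, 20.3, 13.6 and 23.8 CPM with anti-CTLA-4 and 59.4, 72.2, 33.5 and 55.6 CPM with isotype (-1.69 ± 0.21). Macrophage and monocyte genes summed to 79.7 to 132 CPM in these sums with anti-CTLA-4 and 148 to 189.7 CPM with isotype, and their part was not tested. MHC class II genes did not fall here: of 5 tested members 1 was higher and none lower (median 0.96), beside 13.1% and 12.8% of all genes. Cd74 had 204, 148, 246 and 123 CPM with anti-CTLA-4 and 135, 85.9, 45.001 and 185 CPM with isotype, and was not called (0.59 ± 0.29). Of 81 ribosomal protein genes 75 were lower and none higher (median -0.44), and all 13 mitochondrially encoded genes were lower (median -0.67).

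In conventional CD4 T cells, anti-CTLA-4 again went with more type 1 and interleukin 12 transcripts and fewer memory and interferon-response transcripts. Regulatory genes were also lower. The class rule leaves out cells with a Foxp3 UMI, but not regulatory cells whose Foxp3 transcript was not captured. The sums held 139 to 183 cells with anti-CTLA-4 and 95 to 251 with isotype. Of 6616 genes tested, 453 were higher (6.85%) and 409 lower (6.18%), 13.0% in all, and 419 and 400 with hashtags 1 and 2 summed. With library totals 317 were higher and 534 lower, 37.3% and not 52.6% of the calls higher. Both classes shared 310 higher and 245 lower genes, which are 30.9% and 28.5% of the 1002 and 859 genes called in CD8 cells and tested in both.

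Type 1 and interleukin 12 genes were higher in 9 of 15 members and lower in 1 (median 0.59). Il12rb2 had 80.7, 96.7, 111 and 107 CPM in the anti-CTLA-4 hashtags, against 6.04, 14.6, 28.8 and 39.7 CPM in the isotype hashtags (log2 fold change 2.12, SE 0.26, adjusted p = 2.19e-05), Ifng 172, 188, 137 and 123 CPM with anti-CTLA-4 and 30.2, 76.1, 60.8 and 87.4 CPM with isotype (1.25 ± 0.20), and Tbx21 differed by 1.24 ± 0.14. None of these groups overlapped. Cd40lg, the CD40 ligand through which helper cells license dendritic and B cells, had 324, 298, 302 and 319.9 CPM in the anti-CTLA-4 hashtags, against 149, 195, 155 and 182 CPM in the isotype hashtags (log2 fold change 0.92, SE 0.10, adjusted p = 1.05e-05). Serpinb1a, a protease inhibitor, had 193, 247, 261 and 174 CPM in the anti-CTLA-4 hashtags, against 10.1, 21.9, 30.4 and 45.1 CPM in the isotype hashtags, the largest rise in this class (log2 fold change 2.99, SE 0.23, adjusted p = 1.48e-07). It was followed by the matrix protease gene Mmp9 (2.76 ± 0.31), the sialyltransferase gene St3gal6 (2.39 ± 0.23), the inhibitory receptor gene Lilr4b (2.20 ± 0.19) and Fam213a (2.02 ± 0.25). Mmp9 had 58.4, 67.1, 35.1 and 37.99 CPM with anti-CTLA-4 and 10.1, 5.67, 3.20 and 10.8 CPM with isotype.

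Of 21 tested regulatory programme genes, 14 were lower and 1, Ebi3, higher in conventional CD4 cells (median -0.92). Ikzf2 had 22.3, 4.03, 27.1 and 20.8 CPM in the anti-CTLA-4 hashtags, against 145, 157, 128 and 144 CPM in the isotype hashtags (log2 fold change -2.83, SE 0.23, adjusted p = 2.73e-07), and Il2ra 45.7, 53.7, 77.3 and 84.6 CPM with anti-CTLA-4 and 193, 211, 243 and 249 CPM with isotype (-1.71 ± 0.16). Ctla4 itself was not called, although its groups did not overlap (log2 fold change -0.25, SE 0.08, adjusted p = 0.0503), and it was called without anti-CTLA-4 hashtag 1 (-0.30) or 4 (-0.29) or isotype hashtag 4 (-0.30). Cells whose Foxp3 transcript was not captured fall into this class, and their part in these values was not tested. Itgae, the CD103 chain that binds E-cadherin, had 1.06, 1.34, 4.01 and 4.90 CPM in the anti-CTLA-4 hashtags, against 103, 106, 125 and 98.2 CPM in the isotype hashtags, the largest fall with UMIs in every sum (log2 fold change -5.09, SE 0.26, adjusted p = 2.9e-09). Il17a, the cytokine of type 17 cells, had 0, 0, 1 and 0 UMIs in the anti-CTLA-4 sums, against 23, 39, 53 and 37 UMIs in the isotype sums. Gzmb had 25.5, 25.5, 8.03 and 4.90 CPM in the anti-CTLA-4 hashtags, against 121, 245, 320.04 and 224 CPM in the isotype hashtags (log2 fold change -3.79, SE 0.33, adjusted p = 5.16e-07), and Penk fell by 3.76 on the log2 scale.

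Memory genes were lower in 12 of 16 and higher in 2, Lef1 and Satb1 (median -1.08), and Klf2 had 41.4, 34.9, 34.1 and 71.1 CPM in the anti-CTLA-4 hashtags, against 318, 318, 285 and 458 CPM in the isotype hashtags (-2.87 ± 0.20). Type I interferon genes were lower in 25 of 29 and GTPase genes in 10 of 11, with none higher in either (medians -1.17 and -0.95). Rtp4 had 8.50, 1.34, 4.01 and 4.90 CPM with anti-CTLA-4 and 56.3, 85.1, 51.2 and 55.9 CPM with isotype (-3.61 ± 0.32). Macrophage and monocyte genes summed to 91.3 to 167 CPM in these sums with anti-CTLA-4 and 205 to 419.9 CPM with isotype, and their part was not tested. Cell cycle genes were higher in 2 of 32 (median 0.24), near the 6.85% of all genes tested in this class. Glycolysis genes were higher in 8 of 15. The difference between the CD8 and the CD4 effect was called for 1 of 37 cell cycle genes, beside 4.72% of all genes. That gene was no longer called with hashtags 1 and 2 summed. Among inhibitory receptors Lag3 had 36.1, 53.7, 128 and 52.7 CPM in the anti-CTLA-4 hashtags, against 183, 269, 266 and 268 CPM in the isotype hashtags (-1.78 ± 0.25) and Havcr2 fell by 1.24 on the log2 scale, while Tigit rose by 0.50 ± 0.08 and Pdcd1 was not called (-0.25 ± 0.15) but was without anti-CTLA-4 hashtag 3 (-0.50).

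The difference between the CD8 and the CD4 effect was tested itself, as the interaction of class and treatment with the hashtag as block. Cells whose Foxp3 transcript was not captured fall into the conventional CD4 class. Among cells with Cd4 and no CD8 transcript, Foxp3 was found in 3.95% with anti-CTLA-4 and 49.9% with isotype. The part of the uncaptured cells in the differences below was not tested. Of 7668 genes, 173 had a higher effect in CD8 cells (2.26%) and 189 a lower one (2.46%), 4.72% in all, and 142 and 176 with hashtags 1 and 2 summed. With library totals 75.1% and not 47.8% of these calls were higher, and the median gene lay at 0.17 and not 0.02. Cd7, a receptor of the immunoglobulin family, had the smallest p: it had 895, 965, 952 and 824 CPM in the anti-CTLA-4 hashtags, against 412, 425, 496 and 437 CPM in the isotype hashtags in CD8 cells, and 22.3, 26.9, 21.1 and 20.8 CPM in the anti-CTLA-4 hashtags, against 103, 124, 157 and 161 CPM in the isotype hashtags in CD4 cells. The effect was 0.97 ± 0.07 in CD8 cells and -2.53 ± 0.17 in CD4 cells, and the difference was 3.49 ± 0.14 (adjusted p = 3.2e-11). Gzmb followed the same pattern with a difference of 5.24 ± 0.40 (adjusted p = 6.13e-07). Bcl2 fell in both classes but further in CD8 cells, by a difference of -2.58 ± 0.21 (adjusted p = 1.05e-06). Vim, the filament vimentin, rose in CD8 cells and was not called in CD4 cells (difference 0.89 ± 0.07). Tmsb10, a thymosin, and Rps24, a ribosomal protein, had lower effects in CD8 cells (-0.56 ± 0.05 and -0.70 ± 0.06), as did 78 of 81 ribosomal protein genes.

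Several checkpoint and costimulatory genes also differed in effect between the classes, and the part of cells with uncaptured Foxp3 was again not tested. The difference was 1.09 ± 0.12 for Ctla4 (adjusted p = 4.97e-06), 2.06 ± 0.24 for Havcr2, 1.62 ± 0.14 for Lag3 and 0.69 ± 0.12 for Pdcd1, all toward CD8 cells. Il2ra differed by 1.77 ± 0.20, Csf1 by 2.72 ± 0.27 and Itgae by 3.58 ± 0.34. For Tox the effect in CD8 cells was lower by a difference of -1.17 ± 0.20, and for Serpinb1a by -2.19 ± 0.38. No difference was called for Il12rb2 (0.83 ± 0.33, adjusted p = 0.195), Ifng (0.13 ± 0.23), Tbx21 (-0.15 ± 0.21) or Klf2 (0.24 ± 0.18), which does not show that the effects were alike.

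**Figure D4:**
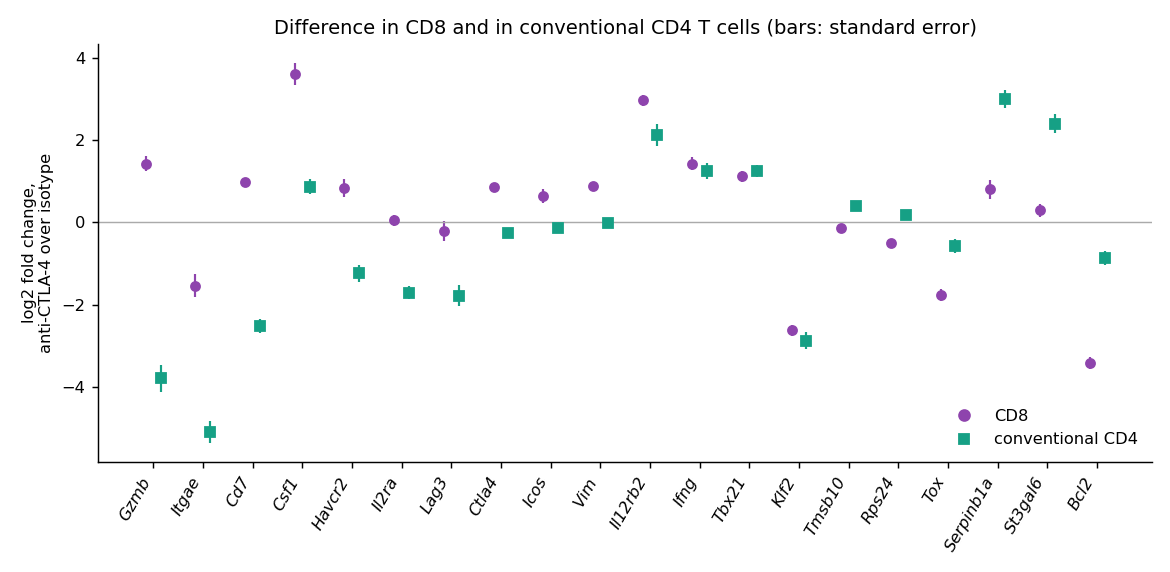
Log2 fold change, anti-CTLA-4 over isotype, with its standard error, of 20 genes in CD8 (circles) and conventional CD4 (squares) T cells. Gzmb and Cd7 lie above 0 in CD8 cells and below 0 in CD4 cells, Il12rb2, Ifng and Tbx21 lie above 0 in both, and Klf2 and Bcl2 lie below 0 in both.

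T cells of the anti-CTLA-4 library were then set against those of the anti-PD-1 library (3399 T cells), to see where the anti-CTLA-4 pattern differs from the other checkpoint antibody. The anti-CTLA-4 sums had fewer transcripts of regulatory, memory, inhibitory receptor and interferon-response genes and more of type 1 genes. The CD8 class held 477 of 1023, 410 of 853, 258 of 668 and 236 of 855 T cells in anti-PD-1 hashtags 1 to 4. With anti-CTLA-4 it held 450 of 797, 474 of 770, 714 of 1080 and 417 of 803. Here too, fewer cells of a class and less RNA per cell cannot be told apart. Of 10013 genes, 1179 were higher with anti-CTLA-4 (11.8%) and 1189 lower (11.9%), 23.6% in all, and 960 and 941 with hashtags 1 and 2 summed. With library totals 38.3% and not 49.8% of the calls were higher. Regulatory programme genes were lower in 19 of 23 members and higher in none, with a median of -1.30, beside -0.004 for all genes. Foxp3 had 24.5, 24.4, 13.9 and 21.6 CPM with anti-CTLA-4 and 79.1, 80.9, 94.6 and 179.7 CPM with anti-PD-1, with anti-PD-1 hashtag 4 above the others (log2 fold change -2.33, SE 0.28, adjusted p = 0.000171). Il12rb2 had 95.8, 101, 92.4 and 94.1 CPM with anti-CTLA-4 and 18.05, 17.9, 18.98 and 15.4 CPM with anti-PD-1 (log2 fold change 2.50, SE 0.08, adjusted p = 2.09e-08), and type 1 genes were higher in 10 of 15 and lower in 1. Serpinb1a (2.52 ± 0.16), the nuclear lamin gene Lmna (2.11 ± 0.10), Anxa1 (2.10 ± 0.14) and Tesc (2.08 ± 0.12) were the other leading rises.

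Several cytotoxic and exhaustion genes were lower than with anti-PD-1 in the same sums over all T cells, in which the class make-up enters. Of 22 effector and cytotoxic genes, 4 were higher and 8 lower (median -0.11). Prf1 had 33.1, 32.9, 41.05 and 27.9 CPM with anti-CTLA-4 and 241, 179, 135 and 157 CPM with anti-PD-1 (log2 fold change -2.35, SE 0.18, adjusted p = 1.3e-05). Lag3 had 88.5, 92.4, 231 and 105 CPM with anti-CTLA-4 and 799.6, 535, 625 and 615 CPM with anti-PD-1 (log2 fold change -2.26, SE 0.28, adjusted p = 0.000207), and Tox 28.3, 22.2, 20.7 and 25.9 CPM with anti-CTLA-4 and 139.7, 89.2, 96.9 and 83.1 CPM with anti-PD-1 (-2.04 ± 0.17). Neither gene's groups overlapped. Gzma was also lower (-2.48 ± 0.40), as were Car2 (-4.39 ± 0.30), Penk (-3.74 ± 0.46), Nrn1 (-2.76 ± 0.36) and Il13 (-2.51 ± 0.33). Inhibitory receptors and exhaustion genes were lower in 12 of 21 and higher in 5, glycolysis genes lower in 10 of 15 and higher in 1, and type I interferon genes lower in 30 of 41 and higher in 1. Ifng (0.27 ± 0.15), Klrc1 (-0.10 ± 0.18) and Cxcr6 (0.15 ± 0.11) were not called, and Ifng was called without anti-PD-1 hashtag 3 (0.43). The 2 comparisons use the same anti-CTLA-4 sums.

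T cell clones were larger after anti-CTLA-4. Among 1895 anti-CTLA-4 and 1985 isotype T cells with 1 alpha and 1 beta chain there were 884 and 1609 clones, 235 and 187 of them with 2 or more cells. Clones of at least 10 cells numbered 26 with anti-CTLA-4 and 7 with isotype, and held 31.0% and 4.74% of these cells. The share of receptor cells in clones of 2 or more cells within their hashtag was 55.1, 59.9, 68.3 and 53.6% with anti-CTLA-4, against 21.1, 33.4, 25.6 and 26.8% with isotype. All anti-CTLA-4 hashtags lay above all isotype hashtags (difference 32.5 points, exact permutation p = 0.0286, adjusted 0.0429; 36.1 points with hashtags 1 and 2 summed).

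In the CD8 class the expanded share was 69.2, 73.7, 78.6 and 70.7% with anti-CTLA-4 and 23.6, 38.5, 23.8 and 31.3% with isotype (difference 43.8 points, exact permutation p = 0.0286, adjusted 0.0429). These shares rest on 225 to 421 receptor cells per hashtag with anti-CTLA-4 and 55 to 160 with isotype. With 261 receptor cells of all classes drawn per hashtag the difference was 39.6 points. That draw did not equalise the number of CD8 receptor cells, whose part in the difference was not tested. In conventional CD4 cells the expanded share was 42.3, 39.4, 56.8 and 30.8% against 30.4, 36.8, 31.9 and 29.9%, which overlapped (10.1 points, exact permutation p = 0.0857). Whether the classes differ in this was not tested. Of the clones with 2 or more cells, 132 of 235 were mostly CD8 with anti-CTLA-4 and 37 of 187 with isotype, 60 and 35 were mostly conventional CD4, and 0 and 48 mostly regulatory. Regulatory cells with a receptor numbered 22 with anti-CTLA-4, none of them in such a clone, and 532 with isotype, 187 of them in one. Clones found in several hashtags made up 43.0% of the anti-CTLA-4 clones of 2 or more cells and 1.60% of the isotype ones, as the plot of clone sharing shows.

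**Figure D5:**
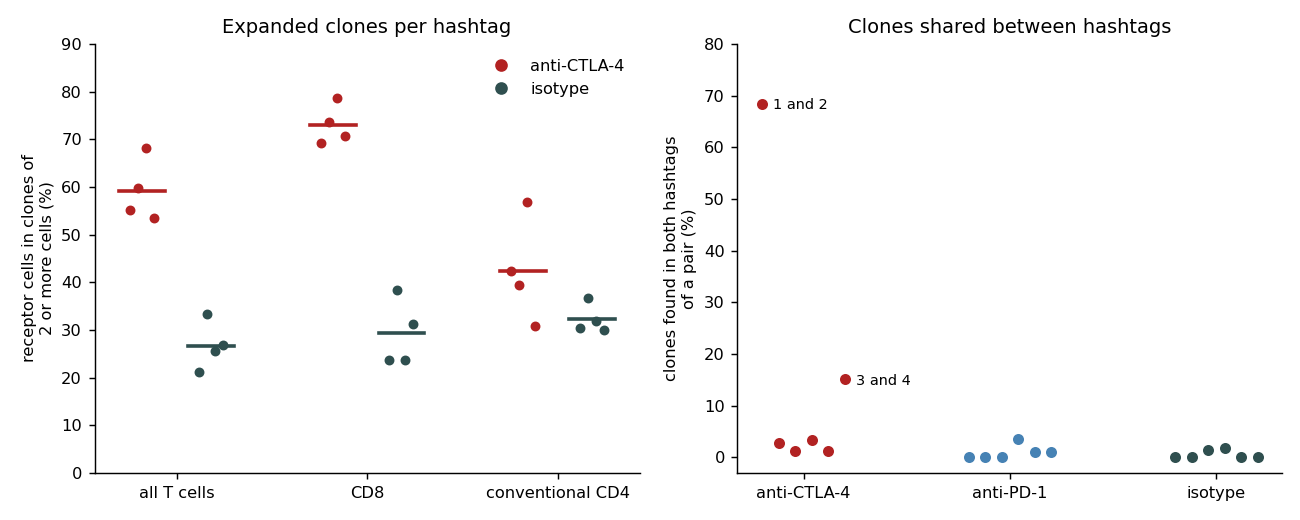
Left, share of receptor-bearing T cells in clones of 2 or more cells per hashtag, in percent, with means as lines. Right, share of clones found in both hashtags of a pair, in percent of the clones of 2 or more cells in that pair, for the 6 pairs of each library. The CD8 points lie between 69.2 and 78.6% with anti-CTLA-4 and between 23.6 and 38.5% with isotype, and the anti-CTLA-4 pair of hashtags 1 and 2 stands alone at 68.4%.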

How the data were processed

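RNA and receptor libraries of tumour T cells from 3 treatments (isotype, anti-PD-1, anti-CTLA-4; 1 library each) were used. The deposited matrices hold raw UMI counts per gene, hashtag and barcode, and the deposited receptor tables hold read and UMI counts per contig. The matrix headers name 10x software 3.1.0, the submitters' processing notes Cell Ranger 3.0.2, and the sources used here name no genome build for them.

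A tag was positive above a threshold set per hashtag from its deposited counts, and cells with several tags were removed; no doublet caller was run, so doublets within a hashtag remain. Counts were summed per hashtag and class, filtered with filterByExpr, scaled by TMM and tested with edgeR 4.0.16 (quasi-likelihood F-test, Benjamini-Hochberg, R 4.3.3). The ± after a log2 fold change is its SE. Shares were compared by two-sided exact permutation tests. The edgeR steps were tested on simulated counts. Alternatives were DESeq2 1.42.0, library totals, no filter, other cell and tag rules, thinned cells, equal cell numbers and each hashtag left out.

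Genes were named by size (mean CPM of at least 20 and no overlap), by smallest p per list, and from a panel of 33 genes, and other list members were named after their values were seen. The members and lists were chosen with earlier results of these data known. Some members of the lists and 1 leading clone are not reported here, and other tumour models of the series were not analysed here.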

Additional observations from a re-analysis of the deposited data

Results flagged for a closer look

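Of 357 groups of 4 hashtags, 26 held a value whose gap to the nearest other was large for the group's range by Dixon's criterion, and chance flags about 1 in 20 groups. In all T cells these were Stk32c 49.8 CPM in anti-CTLA-4 hashtag 1 (others 33.7 to 36.0), Lrrc32 73.0 CPM in isotype hashtag 3 (others 60.3 to 60.9), Icos 646 CPM in anti-CTLA-4 hashtag 4 (others 563 to 574), Gzmb 731 CPM in isotype hashtag 1 (others 557 to 587), Havcr2 52.9 CPM in anti-CTLA-4 hashtag 3 (others 30.9 to 33.7), Lag3 231 CPM in anti-CTLA-4 hashtag 3 (others 88.5 to 105), Cd163l1 20.1 CPM in anti-CTLA-4 hashtag 4 (others 0.345 to 3.48), Il2 22.1 CPM in isotype hashtag 3 (others 5.23 to 5.96), Foxp3 179.7 CPM in anti-PD-1 hashtag 4 (others 79.1 to 94.6) and Bcl2 86.0 CPM in anti-PD-1 hashtag 2 (others 57.0 to 61.2).

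In CD8 T cells they were Gzma 306 CPM in isotype hashtag 2 (others 113 to 145), Havcr2 10.5 CPM in isotype hashtag 3 (others 27.2 to 30.6), Lag3 270.4 CPM in anti-CTLA-4 hashtag 3 (others 113 to 135), Lag3 122 CPM in isotype hashtag 1 (others 183 to 195) and Il7r 233 CPM in anti-CTLA-4 hashtag 4 (others 173 to 179). In conventional CD4 T cells they were Fam213a 16.002 CPM in isotype hashtag 3 (others 19.8 to 20.2), Il17a 1.00 CPM in anti-CTLA-4 hashtag 3 (others 0), Penk 16.1 CPM in anti-CTLA-4 hashtag 2 (others 48.9 to 55.2), Rtp4 85.1 CPM in isotype hashtag 2 (others 51.2 to 56.3), Lag3 183 CPM in isotype hashtag 1 (others 266 to 269), Stat4 188 CPM in anti-CTLA-4 hashtag 1 (others 146 to 153), Ccr8 292 CPM in anti-CTLA-4 hashtag 4 (others 381 to 392), Ccr8 485 CPM in isotype hashtag 2 (others 418 to 424), Il2 149 CPM in isotype hashtag 3 (others 6.04 to 13.0) and Il10 5.37 CPM in anti-CTLA-4 hashtag 2 (others 0). The share of cells without a class transcript stood out at 11.7% in anti-CTLA-4 hashtag 4.

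The effect of anti-CTLA-4 differed between CD8 and conventional CD4 T cells by the interaction test (edgeR) for 173 genes with a higher and 189 with a lower effect in CD8 cells. The differences in log2 fold change, CD8 minus CD4, were 3.49 for Cd7, 5.24 for Gzmb, 0.89 for Vim, -2.58 for Bcl2, -0.56 for Tmsb10 and -0.70 for Rps24. Cells whose Foxp3 transcript was not captured fall into the CD4 class, and their part in these differences was not tested.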

How the results depend on the processing

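No paired analysis was possible because each treatment is 1 library and the labels do not say that a hashtag number pairs cells across treatments. Of the values of single genes under all alternatives, 3099 kept their direction and side of the threshold, 52 lost the call, 42 gained it and 22 changed direction. Thinning to 2000 UMIs gave 1115 higher and 1070 lower genes in T cells, 476 and 451 in CD8, 231 and 194 in CD4, 96 and 117 for the class interaction, and 656 and 605 against anti-PD-1, with fewer counts by construction. Library totals gave 1172 higher genes in T cells and 414 for the interaction. DESeq2 gave 267 lower genes in CD4 and 88 higher for the interaction, and no filter gave 673 and 322 for the same counts; the cause was not tested.

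Thinned cells gave share differences of 42.5 points for CD8, -21.1 for regulatory, -0.911 for gamma-delta and -18.6 for cells of no class. Summing hashtags 1 and 2 gave 40.7, -26.3, -1.29 and -13.2, and 36.1 and 46.6 for expanded clones in all T and in CD8 cells, where 3 against 4 cannot pass the threshold. The stricter cell filter put mixed cells at -4.70. Without each hashtag in turn the differences were 38.3 to 43.0 for CD8, -27.9 to -25.3 for regulatory, -1.60 to -1.23 for gamma-delta, -14.6 to -12.0 for no class, and 29.5 to 34.7 and 41.9 to 46.8 for expanded clones in all T and in CD8 cells.

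Direction changed for these uncalled genes. In T cells these were Gzmb (-0.207 to 0.0317) and Gzma (-0.899 to 0.0723) with single hashtags left out, Tcf7 (-0.133 to 0.0151; 0.0678 without clones in several hashtags) and Tigit (-0.0499 with library totals). In CD8 cells they were Prf1 (-0.0651 to 0.481; -0.247 thinned), Stat4 (-0.0107 to 0.140) and Il2ra (-0.0465 to 0.169; -0.0078 with the stricter filter; -0.710 thinned, called), and in CD4 cells Cd4, a class gene (-0.0149 with library totals, -0.023 thinned). Against anti-PD-1 Cd163l1 ranged from -1.64 to 0.395, with 0.0283 by DESeq2, 0.172 with hashtags summed and 0.0646 with the stricter filter.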

Other observations

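Chemokine and chemokine receptor genes moved in both directions in all T cells, with 6 of 21 tested members higher and 10 lower (median -0.61). Of all genes tested in these sums, 19.5% were higher and 19.4% lower. The class shares differ between the libraries, so fewer cells of a class and less RNA per cell cannot be told apart here. Ccl5 (1.29 ± 0.12), Ccl4 (0.68 ± 0.16) and Cxcr3 (0.76 ± 0.08), genes of type 1 and cytotoxic T cells, rose with anti-CTLA-4. Ccr7 (-1.82 ± 0.18), the lymph node homing receptor, Ccr4 (-1.50 ± 0.18) and Ccr8 (-1.14 ± 0.11), receptors found on regulatory cells, and Cxcr5 (-1.30 ± 0.29), the follicular homing receptor, fell. Costimulation and TNF family genes were higher in 7 of 20 and lower in 6, with Cd28 (0.63 ± 0.07), the costimulatory receptor for the CTLA-4 ligands, and Cd40lg (1.04 ± 0.14) among the rises and Tnfrsf9 (-2.36 ± 0.16), the receptor 4-1BB, among the falls. Tissue residency genes split evenly, with 4 of 10 higher and 4 lower: Itga1 (1.25 ± 0.22) rose, and Itgae (-2.49 ± 0.22) and Ahr (-2.59 ± 0.11) fell.

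One beta chain of the anti-CTLA-4 library, TRBV1 with the CDR3 tgcagtgacagggacacagaagtcttcttt, belonged to a clone of 28 cells, 27 of them CD8 and 22 of them in hashtag 4. The same beta CDR3 nucleotides were found in 190 anti-PD-1 cells and in 0 isotype cells, while the exact pair of chains was found in 0 anti-PD-1 cells. The alpha chain here was TRAV7-4 with TRAJ15 and the CDR3 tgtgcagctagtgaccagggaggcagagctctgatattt. An anti-PD-1 clone of 169 cells, all in hashtag 1, paired this beta with TRAV7N-4, TRAJ15 and the nearly identical alpha CDR3 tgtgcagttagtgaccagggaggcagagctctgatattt. Another of 19 cells, in the same hashtag, paired it with TRAV7D-5 and TRAJ5.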
